A study of Rattus norvegicus with 12 samples.

Results

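The Bcl2 family of apoptosis regulators was examined in the rat ovary. It was taken as 10 gene symbols, Bcl2, Bcl2l1, Bcl2l11, Mcl1, Bax, Bak1, Bad, Bid, Bbc3 and Bok, looked up by exact name among 19730 genes. Rows were found for 8 of the 10 names. Mcl1 and Bbc3 had no match by name and were not analysed here. RNA was sequenced from whole ovaries of wild type female Sprague Dawley rats in postnatal week 15, with 4 libraries from separate animals in each of 3 groups. Control rats were untreated and ate standard pellets. PCOS rats, a model of polycystic ovary syndrome, received letrozole, an inhibitor of the aromatase that makes oestrogen, by mouth at 1 mg/kg per day together with a high-fat diet for 30 days. PCOS-MV rats were given that same regimen and then mogroside V (MV), a sweet triterpenoid glycoside of the fruit of Siraitia grosvenorii, by gavage at 600 mg/kg per day for 30 days.

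Bcl2 family proteins control the permeability of the outer mitochondrial membrane. The anti-apoptotic proteins encoded by Bcl2 and Bcl2l1 (BCL-xL) bind and restrain other members. The effectors BAX, BAK and BOK can open the membrane and release cytochrome c. The BH3-only proteins BIM (Bcl2l11), BAD and BID carry death signals to other members of the family. In the ovary, apoptosis of granulosa cells accompanies the loss of follicles by atresia, and regression of the corpus luteum also involves apoptosis.

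The 3 members whose libraries separated PCOS-MV from PCOS were Bcl2, Bcl2l11 and Bad, and the 250 bases before their annotated starts are shown because Bcl2l11 is a known target of forkhead (FOXO) factors. The windows are RefSeq sequence on GRCr8 in the direction of the gene, at chr13:23366901-23367150 on the minus strand for Bcl2, chr3:135819792-135820041 on the plus strand for Bcl2l11 and chr1:213562864-213563113 on the plus strand for Bad. Capitals mark the forkhead motif TGTTTAC or its reverse complement GTAAACA.
Bcl2: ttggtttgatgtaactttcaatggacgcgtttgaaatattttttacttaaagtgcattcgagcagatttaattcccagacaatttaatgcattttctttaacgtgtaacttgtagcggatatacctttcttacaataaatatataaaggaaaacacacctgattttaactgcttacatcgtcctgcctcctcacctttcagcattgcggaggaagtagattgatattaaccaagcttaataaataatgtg
Bcl2l11: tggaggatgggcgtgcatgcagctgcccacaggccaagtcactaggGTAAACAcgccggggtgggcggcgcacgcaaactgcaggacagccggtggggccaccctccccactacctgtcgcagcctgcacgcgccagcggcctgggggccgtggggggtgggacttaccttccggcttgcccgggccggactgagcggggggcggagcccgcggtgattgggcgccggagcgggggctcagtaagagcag
Bad: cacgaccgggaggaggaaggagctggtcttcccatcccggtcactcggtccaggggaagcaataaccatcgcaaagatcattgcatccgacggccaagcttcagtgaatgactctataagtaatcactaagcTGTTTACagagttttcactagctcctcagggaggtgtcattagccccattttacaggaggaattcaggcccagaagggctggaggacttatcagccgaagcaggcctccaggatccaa
The motif lay 204 bases before the start in Bcl2l11 and 118 bases before it in Bad, and the Bcl2 window held none. Of the 8 members measured, 6 had windows, 9 windows in all since Bcl2l1 had 4. The motif was in 2 of these 9 windows, and in 3.21% of all 33469 rat promoter windows of that length. Since the motif was picked with Bcl2l11 in mind, these shares are no test. Binding of any factor was not measured. The GC box GGGCGG or its reverse complement CCGCCC was in 30.5% of all windows and in 3 of the 9, those of Bak1, Bcl2l11 and Bid.

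Sequencing depth, read from the value of 1 fragment in genes with a single transcript, was 30200000 to 36900000 fragments per library. Correlations of log2 expression between libraries of a group were 0.921 to 0.974 in Control, 0.972 to 0.978 in PCOS and 0.952 to 0.978 in PCOS-MV. Markers of the ovarian cell types were present, with no gene of any marker list at 0 in all libraries. Their summed FPKM (fragments per kilobase of transcript, scaled to the mapped fragments of the library) differed between groups. The theca and interstitial list (6 of 6 genes) summed to 196-376 in Control, 1752-3257 in PCOS and 209-309 in PCOS-MV, and 1 of its genes, Acta2, is also on the smooth muscle list. In PCOS against Control 2 of its genes were called higher, Cyp17a1 and Insl3, which carried the sum at 1190 and 1032 FPKM in PCOS, and 2 were called lower, Fabp4 and Ptch1. Granulosa markers (9 of 9) summed to 728-1005, 1135-1640 and 646-1194, and luteal markers (7 of 8) to 7399-8848, 2288-3853 and 4582-11092, in the same order of groups. In whole tissue, fewer cells of a type cannot be told apart from less RNA per cell.

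Levels were compared between members as FPKM, which is scaled by transcript length. Every member passed the filter of a mean of at least 1 FPKM over the 12 libraries. Bok, which encodes the Bcl-2-related ovarian killer, had the highest mean in all 3 groups and Bid the lowest. Over the 12 libraries Bok averaged 22.9 FPKM, above 75.9% of the 13430 genes tested, and Bid averaged 3.35 FPKM, above 20.2% of them. Bcl2 averaged 6.99 FPKM, or less than its relative Bcl2l1 at 16 FPKM, and FPKM rests on the listed transcript lengths, of which the longest for Bcl2 was 1179 bases. Many neighbours in the order of means overlapped. In Control libraries the only neighbours that did not overlap were Bcl2 and Bid. In PCOS, Bax lay above Bcl2l1, Bcl2l1 above Bcl2l11 and Bad above Bid in every library, and Bcl2 and Bcl2l11 overlapped. In PCOS-MV, Bak1 lay above Bcl2l1 and Bcl2l11 above Bad, and Bcl2 lay between Bad and Bid and overlapped neither.

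**Figure D1:**
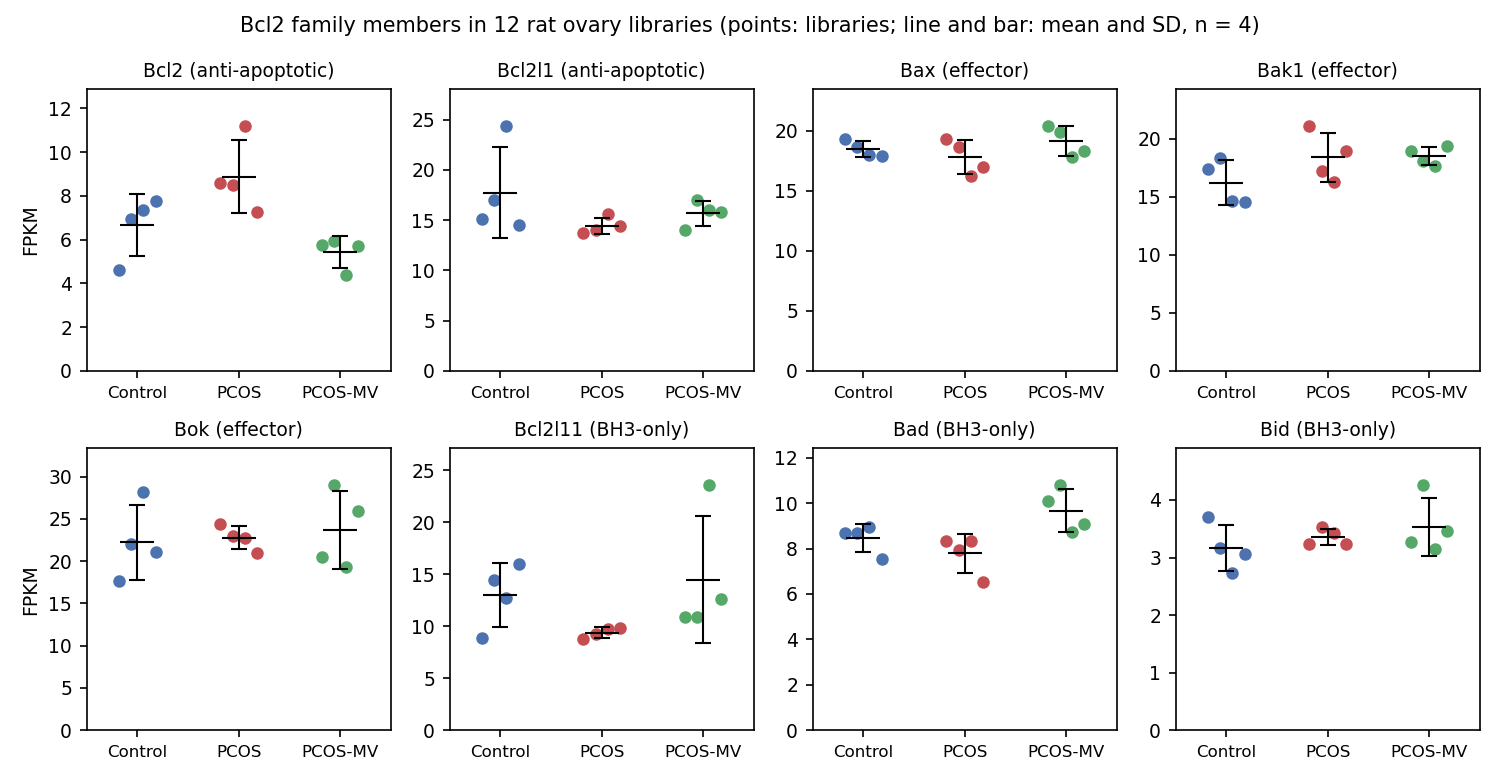
FPKM of the 8 Bcl2 family members (y axis, from 0) in each ovary library by group (x axis); each point is 1 library, and the line and bar are the mean and SD of 4. All PCOS Bcl2 libraries (7.26 to 11.2) sit above all PCOS-MV libraries (4.36 to 5.93), while the 3 groups overlap for Bcl2l1, Bax, Bak1, Bok and Bid.

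The comparison of PCOS-MV with PCOS asked which members differed after MV treatment. Bcl2 was lower in PCOS-MV, at 5.44 ± 0.726 FPKM (SD, n = 4) against 8.88 ± 1.65 FPKM in PCOS, and it was the 1 member of 8 called, where a call is a limma adjusted p under 0.05 over all genes tested. Of all 13430 genes tested, 25.7% were called in this comparison, and 11.4% were called lower. Bcl2l11 and Bad were higher in every PCOS-MV library than in any PCOS library but did not pass the adjusted threshold. Together with Bcl2, 3 of 8 members thus had groups that did not overlap, against 30.0% of all genes. The same 3 had unadjusted limma p under 0.05, as did 38.5% of all genes. The other 5 members overlapped. The median log2 fold change of the 8 members was 0.08, and that of all genes was 0.03.

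Bcl2, on chromosome 13 (26605426-26769374, minus strand, in the coordinates of the deposited table, whose build is not given in the sources used here), is the founding anti-apoptotic member. Its FPKM was 8.57, 8.49, 11.2 and 7.26 in PCOS replicates 1 to 4, and 5.76, 5.93, 4.36 and 5.71 in PCOS-MV replicates 1 to 4. Every PCOS-MV library was below every PCOS library. On the log2(FPKM + 1) scale, Bcl2 fell by 0.61 (SE 0.13, 95% interval -0.92 to -0.30, limma adjusted p = 0.0123), and the exact two-sided permutation p was 0.0286, the smallest that 4 against 4 libraries allow. Without PCOS-MV replicate 3, the lowest library, the difference was -0.52 with a limma adjusted p of 0.0226. Of the marker sums given above, that of the theca list was also higher in every PCOS library than in any PCOS-MV library, that of the luteal list was lower, and those of the granulosa list overlapped. Single genes went against these sums, with Fabp4 of the theca list called higher in PCOS-MV (19.7 against 2.15 FPKM) and Lhcgr of the luteal list called lower (49.1 against 149 FPKM). Endothelial markers (6 of 7) summed to 71.5-91.6 FPKM in PCOS and 97-139 in PCOS-MV. Their part in this and the following results was not tested.

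Bcl2l11 encodes BIM, a BH3-only activator, and lies on chromosome 3 (120726906-120764192, plus strand). Its FPKM was 8.77, 9.23, 9.75 and 9.83 in PCOS, and 10.9, 10.9, 23.6 and 12.6 in PCOS-MV. The PCOS libraries were close together and PCOS-MV replicate 3 stood far above the other PCOS-MV libraries. The log2 difference was 0.50 (SE 0.22, 95% interval 0.01 to 1.0, limma adjusted p = 0.126), and it was 0.26 without PCOS-MV replicate 3 (limma adjusted p = 0.0563). That library also had the highest luteal, granulosa and endothelial marker sums of the group, at 11092, 1194 and 139. Its theca and smooth muscle sums were the lowest of the group, at 209 and 343.

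Bad, on chromosome 1 (222198534-222207453, plus strand), encodes a BH3-only sensitizer that is held inactive when phosphorylated by survival kinases. Its FPKM was 8.33, 7.94, 8.35 and 6.53 in PCOS, and 10.1, 10.8, 8.72 and 9.07 in PCOS-MV. The highest PCOS library was just under the lowest PCOS-MV library. The log2 difference was 0.28 (SE 0.10, 95% interval 0.05 to 0.51, limma adjusted p = 0.0719). In 1 model for all 12 libraries the limma adjusted p was 0.0471. This was the 1 call among 7 alternatives that kept every library. Fits that left out 1 library gave 0 calls of 8 (limma adjusted p 0.0581 to 0.163).

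Of the effectors, Bax on chromosome 1 (101451802-101457207, minus strand) ranged from 16.2 to 19.3 FPKM in PCOS and from 17.8 to 20.4 FPKM in PCOS-MV. Its log2 difference was 0.10 with a 95% interval of -0.08 to 0.28. Bak1, which encodes the related pore former BAK, on chromosome 20 (5609625-5618260, minus strand), differed by 0.02 on the log2 scale (-0.18 to 0.22). Bok, on chromosome 9 (100829552-100840504, plus strand), differed by 0.04 (-0.25 to 0.33). Bid encodes the BH3-only protein that caspase-8 cleaves, and on chromosome 4 (153442218-153465203, minus strand) it differed by 0.05 (-0.16 to 0.26). Bcl2l1, on chromosome 3 (148259596-148313810, minus strand), differed by 0.11 (-0.06 to 0.29). It has 4 listed transcripts but 1 value per gene, so the long and short splice forms, which have opposite activities, were not separated. The intervals of these 5 genes all contained 0, none excluded a small difference, and Bak1, Bok and Bid changed sign when single libraries were left out.

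The comparison of PCOS with Control asked how the members differed in the disease model. By limma, 0 of the 8 members were called, and 1, Bcl2l11, had an unadjusted p under 0.05, as did 39.4% of all genes tested. All 8 had overlapping groups. Of all genes tested, 27.4% were called and 31.0% had groups that did not overlap. The median log2 fold change of the members was 0.00, and that of all genes was -0.03.

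Bcl2 was 4.59, 6.95, 7.35 and 7.77 FPKM in Control replicates 1 to 4, or 6.66 ± 1.42 (SD, n = 4). PCOS replicate 4, at 7.26 FPKM, was under the 2 highest Control libraries. The log2 difference was 0.37 in the direction of PCOS (95% interval -0.01 to 0.75, limma adjusted p = 0.134), and 0.23 without Control replicate 1. Bcl2l11 was 8.88, 14.5, 12.7 and 16 FPKM in Control, where replicate 1 alone lay within the range of the PCOS libraries. Its log2 difference was -0.40 (95% interval -0.76 to -0.05, limma adjusted p = 0.0888). Without Control replicate 1 it was -0.56 with a limma adjusted p of 0.0039, so that the call turned on that library. Bcl2l1 was 17.8 ± 4.57 FPKM in Control and 14.4 ± 0.807 in PCOS (SD, n = 4), a log2 difference of -0.26 (95% interval -0.60 to 0.08), and Control replicate 3 was its highest library at 24.4 FPKM. Without that library the difference was -0.10. It was also the highest Control library for Bok, at 28.2 FPKM. Its smooth muscle, ciliated oviduct and adipocyte marker sums were the highest of the group, at 914, 16.9 and 36.1. In the other Control libraries these sums were 347-504, 2.05-3.86 and 5.27-21.3. Whether tissue other than ovary was included, and its part in these values, was not tested.

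The remaining 5 members had log2 differences between PCOS and Control of -0.11 for Bad, -0.05 for Bax, 0.05 for Bok, 0.07 for Bid and 0.17 for Bak1. The widest of their 95% intervals was that of Bok, from -0.24 to 0.34.

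PCOS-MV was also set against Control. By limma, 0 of the 8 members were called, 0 had an unadjusted p under 0.05, and all groups overlapped. The background was low here, with 0.00745% of all genes called, 8.50% at an unadjusted p under 0.05 and 5.10% with groups that did not overlap. Differences on the log2 scale ran from -0.24 for Bcl2 (95% interval -0.60 to 0.12) to 0.19 for Bak1 (-0.02 to 0.40). The interval of Bcl2l11 was the widest, from -0.50 to 0.70. This comparison and the others share libraries, so their values are not independent of one another.

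**Figure D2:**
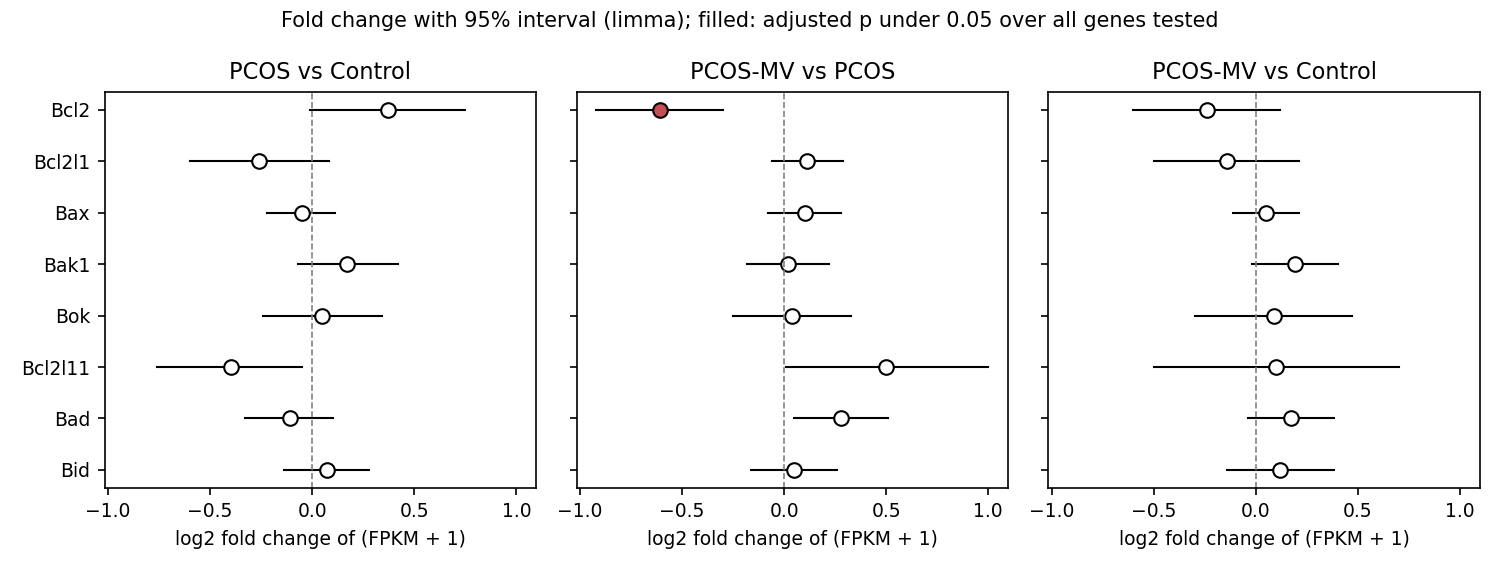
Log2 fold change of FPKM + 1 (x axis) for each member (rows) in the 3 comparisons (panels), with 95% limma intervals; a filled point has an adjusted p under 0.05 over all genes tested. The 1 filled point is Bcl2 in PCOS-MV against PCOS, at -0.61.

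The ratio of Bax to Bcl2 is often read as a balance between an effector and its restraint, and it was computed in each library from FPKM. The ratio was 4.19, 2.68, 2.44 and 2.31 in Control, 2.25, 2.19, 1.45 and 2.34 in PCOS and 3.54, 3.35, 4.09 and 3.21 in PCOS-MV. All PCOS-MV libraries were above all PCOS libraries, and the Control libraries overlapped both. On the log2 scale the mean was 1.50 ± 0.39 in Control, 1.02 ± 0.32 in PCOS and 1.82 ± 0.15 in PCOS-MV (SD, n = 4). Since both its terms are given above, the ratio is not a further independent measurement.

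A pair of further ratios was chosen after the values were seen and is given without a test. The ratio of Bcl2l11 to Bcl2 was 1.72-2.09 in Control, 0.872-1.35 in PCOS and 1.83-5.41 in PCOS-MV. The 5.41 was PCOS-MV replicate 3 alone, and the other PCOS-MV libraries were 1.83-2.21. The PCOS libraries were below all libraries of the other groups. The ratio of Bcl2l1 to Bcl2 was 1.87-3.33, 1.39-1.98 and 2.43-3.66 in the same order, and here a Control library overlapped PCOS.

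**Figure D3:**
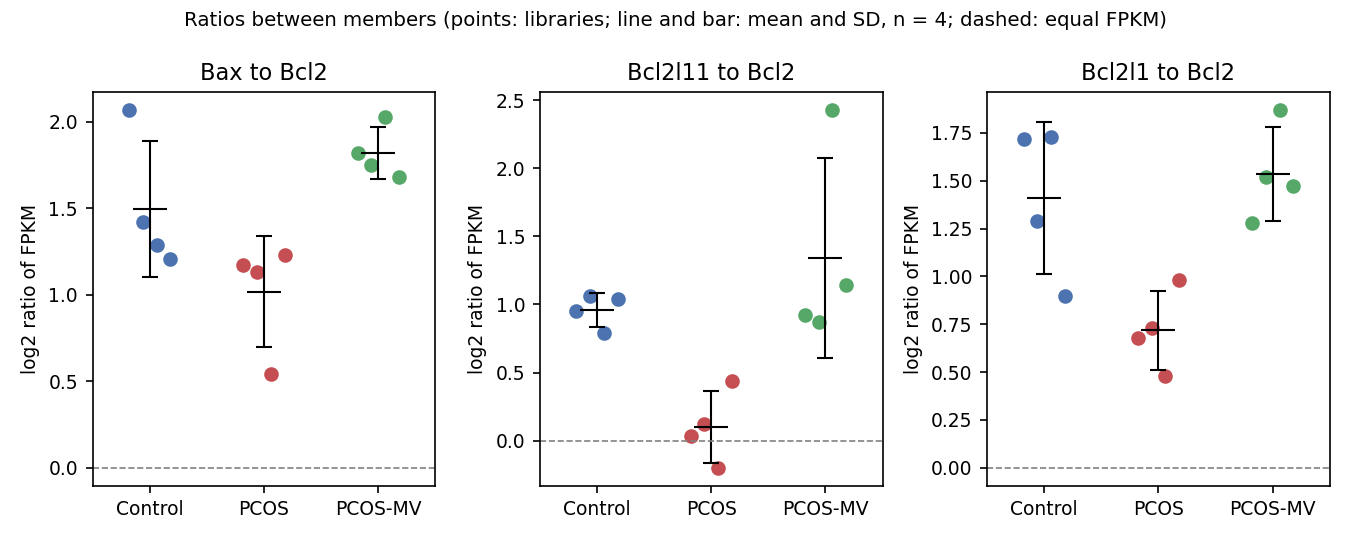
Log2 ratio of FPKM between members (y axis) in each library by group (x axis); points are libraries, the line and bar are the mean and SD of 4, and the dashed line marks equal FPKM. For Bax to Bcl2 the mean was 1.02 in PCOS and 1.82 in PCOS-MV.

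Summed over the members of each role, the anti-apoptotic genes took 20.7-27.2% of the family's FPKM in Control, 20.7-25.9% in PCOS and 18.4-19.8% in PCOS-MV. The PCOS-MV shares were below all those of the other groups. However, the summed anti-apoptotic FPKM overlapped, at 19.7-31.8 in Control, 21.6-26.7 in PCOS and 19.8-22.9 in PCOS-MV. These sums cover Bcl2 and Bcl2l1 only, and Mcl1 was not analysed. The anti-apoptotic relatives Bcl2l2 and Bcl2a1, named after their values were seen, are not in them. Their means in PCOS-MV against PCOS were 18.8 against 13.5 and 7.46 against 4.51 FPKM. Neither was called (limma adjusted p = 0.08 and 0.136). However, Bcl2l2 was higher in every PCOS-MV library (16-26.5 FPKM) than in any PCOS library (12.5-14 FPKM), while Bcl2a1 overlapped. The lower anti-apoptotic share in PCOS-MV therefore holds for Bcl2 and Bcl2l1 alone, and was not computed with these relatives. The effectors took 52-57%, 53.3-60.3% and 49.5-57.8%, which overlapped. BH3-only members took 20.9-26%, 18.9-20.8% and 22.4-32.1%, lowest in PCOS. Their summed FPKM overlapped between Control (21.3-26.6) and PCOS (19.6-21.5), and was 24.2-35.4 in PCOS-MV. Bmf, described below, is not in this class sum. The family as a whole summed to 106 ± 9.27, 103 ± 3.86 and 110 ± 4.93 FPKM (SD, n = 4).

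The other genes of the apoptosis machinery were taken from 6 lists with 67 names, of which 64 were matched and 56 were expressed above the filter. In PCOS against Control, 8 were called higher, 7 lower and 41 not called, or 26.8% called. In PCOS-MV against PCOS, 8 were called higher, 6 lower and 42 not called, or 25% called. Both shares were near the backgrounds of 27.4% and 25.7%. The medians were -0.08 and 0.11 on the log2 scale. In PCOS-MV against Control, limma called 0 of 56, with 5 at an unadjusted p under 0.05. Leaving out PCOS replicate 2 gave 8 calls against Control and 9 in PCOS-MV against PCOS, and leaving out PCOS replicate 3 gave 8 in the latter. Calls over all genes also fell without PCOS replicate 2, from 3684 to 2762 against Control and from 3448 to 2445 in PCOS-MV against PCOS. Without PCOS replicate 3 the latter count was 2644.

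Among 10 other Bcl2 family genes, limma called 1 lower in PCOS than in Control and 2 higher in PCOS-MV than in PCOS. Bmf, a BH3-only gene, was in both counts. Its FPKM was 13.3, 20.9, 23.3 and 26.1 in Control, 10.8, 10.8, 11.7 and 10.1 in PCOS and 12.1, 20.1, 19.5 and 23.8 in PCOS-MV. All PCOS libraries were below all others, with log2 differences of -0.85 (limma adjusted p = 0.00866) against Control and 0.71 (limma adjusted p = 0.0191) in PCOS-MV against PCOS. Bcl2l14 was the other gene called in PCOS-MV against PCOS, at 1.31 ± 0.257 against 0.715 ± 0.219 FPKM (SD, n = 4, limma adjusted p = 0.0361).

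Among 7 caspases, 3 were called higher and 1 lower in PCOS than in Control. Casp12, linked to the endoplasmic reticulum, rose from 3.57 ± 0.236 to 5.45 ± 0.431 FPKM (SD, n = 4), and Casp9, the initiator of the apoptosome, from 8.67 to 10.7 FPKM (limma adjusted p = 0.00275 and 0.0449). Casp6, an executioner, fell from 6.38 to 4.16 FPKM (limma adjusted p = 0.0255). In PCOS-MV against PCOS limma called 0 of 7, and 0 had an unadjusted p under 0.05. Casp12 was uneven in PCOS-MV, at 3.62, 8.3, 3.32 and 8.48 FPKM in replicates 1 to 4. These lay on both sides of its PCOS range of 4.96 to 6.01 FPKM.

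Of 11 genes of mitochondrial release and the apoptosome, 2 were called lower in PCOS than in Control. Aifm1, a flavoprotein of the mitochondrial intermembrane space, fell from 31.3 to 24.2 FPKM, and Dffa, the inhibitor of the DNase that cuts chromatin, fell from 8.26 to 6.47 FPKM (limma adjusted p = 0.0164 and 0.0221). In PCOS-MV against PCOS 2 were called higher, Dffa at 9.53 FPKM and Cycs, which encodes cytochrome c, at 45.2 ± 8.82 against 33.1 ± 1.14 FPKM (SD, n = 4), with limma adjusted p of 0.0178 and 0.0412. Aifm1 was 24.6 ± 4.54 FPKM in PCOS-MV (SD, n = 4).

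Of 9 inhibitors of apoptosis, 2 were called higher and 1 lower in PCOS than in Control. Bag3, a co-chaperone, rose from 18.9 to 33.7 FPKM, Birc2, which encodes the ubiquitin ligase cIAP1, from 13.8 to 17.4, and Tmbim6, the BAX inhibitor of the endoplasmic reticulum, fell from 301 to 233 (limma adjusted p = 0.00489, 0.0395 and 0.00789). In PCOS-MV against PCOS, Bag3 and Birc2 were the 2 called lower, at 21.5 and 12.3 FPKM, with limma adjusted p of 0.0375 and 0.00315. Tmbim6 was 287 ± 27.1 FPKM in PCOS-MV (limma adjusted p = 0.0503).

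Of 7 genes on a list of death receptors, TNF receptors, ligands and signalling partners, 3 were called higher in PCOS than in Control. Tnfrsf1b, a TNF receptor without a death domain, was 9.62-11.8 FPKM in Control, 28.2-36.7 in PCOS and 9.27-16.1 in PCOS-MV. PCOS was above both other groups in every library, with log2 differences of 1.56 against Control (limma adjusted p = 2.07e-05) and -1.36 in PCOS-MV against PCOS (limma adjusted p = 0.000618). Tnfsf10, which encodes the ligand TRAIL, rose from 8.16 to 12.2 FPKM in PCOS and was called lower in PCOS-MV at 8.2 FPKM (limma adjusted p = 0.0361 and 0.00955). Fas, a receptor with a death domain, rose from 1.15 to 1.93 FPKM in PCOS (limma adjusted p = 0.0219). The 1 gene called higher in PCOS-MV than in PCOS was Tradd, an adaptor named after its values were seen, at 14.6 against 11.9 FPKM (limma adjusted p = 0.0216).

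Of 12 p53 and FOXO regulators and targets, 2 were called lower in PCOS than in Control, and 3 higher and 2 lower in PCOS-MV than in PCOS. Gadd45a, a DNA damage response gene, was 99.8, 148, 168 and 159 FPKM in Control, 22.3, 18.8, 33.5 and 22.3 in PCOS and 120, 93.5, 370 and 136 in PCOS-MV. The PCOS libraries were below all others, with log2 differences of -2.52 (limma adjusted p = 6.96e-05) and 2.66 (limma adjusted p = 0.00206). Cdkn1a, which encodes the cell cycle inhibitor p21, fell from 46.7 to 20.6 FPKM in PCOS and was 76.3 FPKM in PCOS-MV, where it was called higher (limma adjusted p = 0.0102 and 0.00313). The third gene called higher was Trib3, a stress-induced pseudokinase, at 2.02 ± 1.13 against 0.485 ± 0.204 FPKM (SD, n = 4, limma adjusted p = 0.0193). The 2 called lower, named after their values were seen, were Mdm4, a p53 inhibitor, at 17.4 against 23.1 FPKM, and Foxo1, a forkhead factor, at 57.7 ± 19 against 99.7 ± 5.89 FPKM (SD, n = 4), with limma adjusted p of 0.0231 and 0.0151. Foxo1 was 98 ± 31 FPKM in Control.

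**Figure D4:**
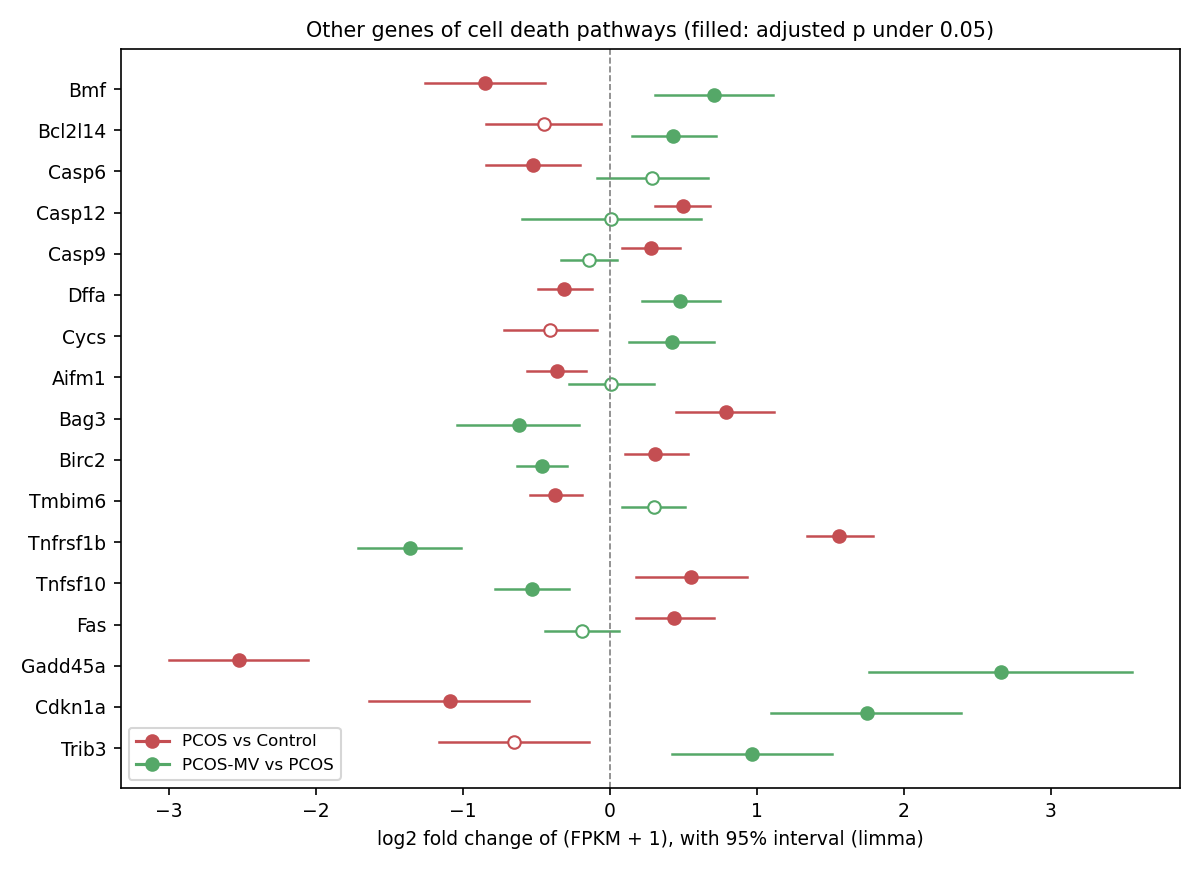
Log2 fold change of FPKM + 1 (x axis) with 95% limma intervals for the 17 apoptosis genes outside the family members that were named by rule (rows), in PCOS against Control and in PCOS-MV against PCOS; filled points have an adjusted p under 0.05. Gadd45a has the largest changes shown, -2.52 and 2.66, and both comparisons use the same PCOS libraries.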

How the data were processed

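The authors deposited a table of FPKM per gene for the 12 libraries, with 26928 transcript lines collapsed here to 19730 genes. The methods of the study name HISAT2 2.0.5 and featureCounts, whereas the submitters' processing notes name STAR 2.5.1b and HTSeq 0.6.0. The genome build is not given in the sources used here, and its coordinates differ from GRCr8, used only for promoters. The table's group means, fold changes and p-values were not used. The 13430 genes averaging 1 FPKM or more were fitted per pair of groups with limma 3.58.1 (R 4.3.3, eBayes with trend) on log2(FPKM + 1), with Benjamini-Hochberg adjustment over all genes, since the file holds no counts for the study's count test. That scale understates changes of low genes. The code was tested on simulated data. Members and lists were chosen with earlier results of these data known. Of the apoptosis genes called in PCOS against Control, 1 is counted but not reported by name here. All members were named, and of each other list the 3 genes with the largest absolute log2 fold change among those called in PCOS against Control or PCOS-MV against PCOS. Alternatives changed the pseudocount, filter, model, block, scaling, trend and libraries.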

Additional observations from a re-analysis of the deposited data

Results flagged for a closer look

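Among 75 groups of 4 libraries examined, 5 held a library whose gap to the others exceeded Dixon's limit, and chance flags about 1 in 20 groups, or 3.75 of 75. In PCOS-MV replicate 3, Bcl2 was 4.36 FPKM (others 5.71-5.93), Bcl2l11 was 23.6 FPKM (others 10.9-12.6), Casp6 was 7.41 FPKM (others 4.45-4.91) and Gadd45a was 370 FPKM (others 93.5-136). In PCOS-MV replicate 1, Bag3 was 15.3 FPKM (others 22.9-24.3).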

How the results depend on the processing

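Over 24 member comparisons with 15 alternatives each, 345 kept their direction and side of the threshold, 2 became calls and 13 changed sign. The 13 fell in 7 comparisons with main log2 differences of at most 0.14 in size, and none was a call. Leaving out 1 library moved Bok between -0.05 and 0.16 in PCOS against Control, Bak1 between -0.04 and 0.08, Bok between -0.06 and 0.13 and Bid between -0.02 and 0.09 in PCOS-MV against PCOS, and Bcl2l1 between -0.22 and 0.01, Bok between -0.01 and 0.20 and Bcl2l11 between -0.15 and 0.21 in PCOS-MV against Control. Rescaling gave -0.01 for Bak1 in PCOS-MV against PCOS. Bcl2 in PCOS-MV against PCOS was called in 8 of 8 fits that left out 1 library (limma adjusted p 0.0143 to 0.0318) and in 7 of 7 other alternatives (0.0113 to 0.0455). Leaving out 1 library gave 0 to 1 members called in PCOS against Control, the 1 being Bcl2l11 without Control replicate 1, and 1 model for all 12 libraries gave 2 in PCOS-MV against PCOS, with Bad added. The counts of other apoptosis genes, 15 in PCOS against Control and 14 in PCOS-MV against PCOS, both ranged from 8 to 16 when 1 library was left out. In the same fits the counts of all genes, 3684 and 3448, ranged from 2762 to 3915 and from 2445 to 3354. The limma count of all genes in PCOS-MV against Control went from 1 to at most 4, without Control replicate 3. The labels do not state whether replicate numbers pair libraries across groups. Correlations of deviations between libraries of the same number were -0.05 to 0.22, which cannot settle it. With the replicate number as a block, 0, 1 and 0 members were called in PCOS against Control, PCOS-MV against PCOS and PCOS-MV against Control. In the same order, 10, 13 and 0 other apoptosis genes and 2905, 3079 and 0 of all genes were called. The Bax to Bcl2 log2 difference of PCOS-MV from PCOS, 0.81, stayed between 0.65 and 0.88. With 4 libraries per group, small differences were not resolvable.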
